A study of Mus musculus with 4 samples.

Results

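The late neutrophil granule genes are a set of 10 mouse genes that are known as products of late neutrophil maturation. They are Ltf, Camp, Ngp, Lcn2, Mmp8, Mmp9, Cd177, S100a8, S100a9 and Lrg1. They were taken as every probe set whose platform symbol is 1 of these names and no other gene, which gave 11 probe sets of 45101 on the array and 10 genes of 18193 named. Mmp9 has 2 probe sets, numbered here (1) for the brighter and (2) for the other, and each other member has 1. All 11 probe sets exceeded 157, the median intensity of the whole table, on all 4 arrays.

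Affymetrix arrays measured RNA of 4 cell populations sorted from mouse bone marrow, with 1 array per group. The groups are Fbw7-deficient LSK cells, WT (wild-type) LSK cells, Fbw7-deficient MP cells and WT MP cells. LSK cells (Lin-ckit+Sca1+) hold the hematopoietic stem cells with the earliest multipotent progenitors, and MP cells (Lin-ckit+Sca1-) are myeloid progenitors that the study used as a control for LSK-enriched genes. Animals received 3 injections of polyI:C, a synthetic double-stranded RNA that triggers interferon, at 20 ug per g and were sampled 2 weeks later. Each genotype's marrow was a pool of 3 mice, from which both its LSK and its MP cells were sorted, and 20 ng of total RNA was amplified in 2 cycles. Fbw7, encoded by Fbxw7, is the substrate-binding subunit of an SCF ubiquitin ligase. The allele, the cells it was deleted in and the age of the animals are not given in the labels. No group has a replicate, so each difference lies between single arrays, no error can be given and no test was made. In these bulk samples, fewer cells of a type and less RNA per cell cannot be told apart.

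Neutrophils build their granules in the order of maturation. Promyelocytes fill the primary granules with myeloperoxidase and serine proteases, myelocytes and metamyelocytes make the secondary granules with lactoferrin, cathelicidin and lipocalin, and gelatinase granules follow. The transcription factor C/EBP epsilon is known to be required for secondary granule genes. Lineage-negative, Kit-positive progenitors come before the stages that fill the later granules.

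Of the 10 genes, Mmp8, Camp, Ngp and Ltf lie on mouse chromosome 9, the last 3 near each other, with 8 protein-coding genes between Camp and Ngp and 20 between Ngp and Ltf. S100a8 and S100a9 are direct neighbours on chromosome 3. The promoters of the members were searched for TTNNGNAA, a loose form of the C/EBP recognition sequence, in the 250 bases before the RefSeq start on both strands. RefSeq windows (GRCm38.p6) were matched for 9 of the 10 members, and the gene without an entry is Mmp9. The motif lay in 7 of 9 windows, against 36.9% of 27011 gene windows of the same length and 30.9% of the 14444 for genes named on the array. The Camp and Lrg1 windows hold no match. A match is a description of letters and not a binding site. The share describes a list chosen as known late granule genes, and its relation to the array differences was not tested. The 4 windows shown hold the 8-base runs that recur between members. TTGGGCAA occurs in Ltf and in Ngp, and TTGCTCAA in Lcn2 and in Mmp8. Capitals mark the matches on either strand, and each sequence runs 5′ to 3′ on the strand of the gene. Ltf lies at chr9:111019042-111019291 on the plus strand, Ngp at chr9:110419558-110419807 on the plus strand, Lcn2 at chr2:32387740-32387989 on the minus strand and Mmp8 at chr9:7558179-7558428 on the plus strand.
Ltf: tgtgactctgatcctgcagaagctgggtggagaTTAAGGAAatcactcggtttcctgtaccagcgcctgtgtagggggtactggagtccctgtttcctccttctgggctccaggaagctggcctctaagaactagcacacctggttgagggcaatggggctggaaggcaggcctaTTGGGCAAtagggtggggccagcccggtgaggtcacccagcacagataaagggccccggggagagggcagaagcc
Ngp: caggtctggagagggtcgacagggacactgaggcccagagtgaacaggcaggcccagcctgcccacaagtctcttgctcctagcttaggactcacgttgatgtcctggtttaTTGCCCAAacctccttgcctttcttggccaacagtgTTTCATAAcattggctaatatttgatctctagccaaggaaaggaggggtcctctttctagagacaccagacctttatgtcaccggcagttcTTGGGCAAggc
Lcn2: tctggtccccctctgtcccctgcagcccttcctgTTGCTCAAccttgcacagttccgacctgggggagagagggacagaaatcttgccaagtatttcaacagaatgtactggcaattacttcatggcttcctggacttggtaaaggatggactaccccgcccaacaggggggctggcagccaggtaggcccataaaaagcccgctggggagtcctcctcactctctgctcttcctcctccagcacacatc
Mmp8: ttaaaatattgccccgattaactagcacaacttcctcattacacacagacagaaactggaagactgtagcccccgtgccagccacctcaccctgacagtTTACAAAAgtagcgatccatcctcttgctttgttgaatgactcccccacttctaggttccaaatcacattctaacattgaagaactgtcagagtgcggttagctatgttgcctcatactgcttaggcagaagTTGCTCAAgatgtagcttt

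In Fbw7-deficient LSK cells all 10 genes read higher than in WT LSK cells, 8 of them by at least 2-fold, with a median log2 difference of 1.42. Of the 12239 genes that reached the median intensity on some array, 1.79% were at least 2-fold higher in this comparison, and their median was 0.00. In MP cells the same genes differed little between genotypes, with a median of 0.18. The exception was Lrg1, which was more than 2-fold higher in the Fbw7-deficient cells of both populations.

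**Figure D1:**
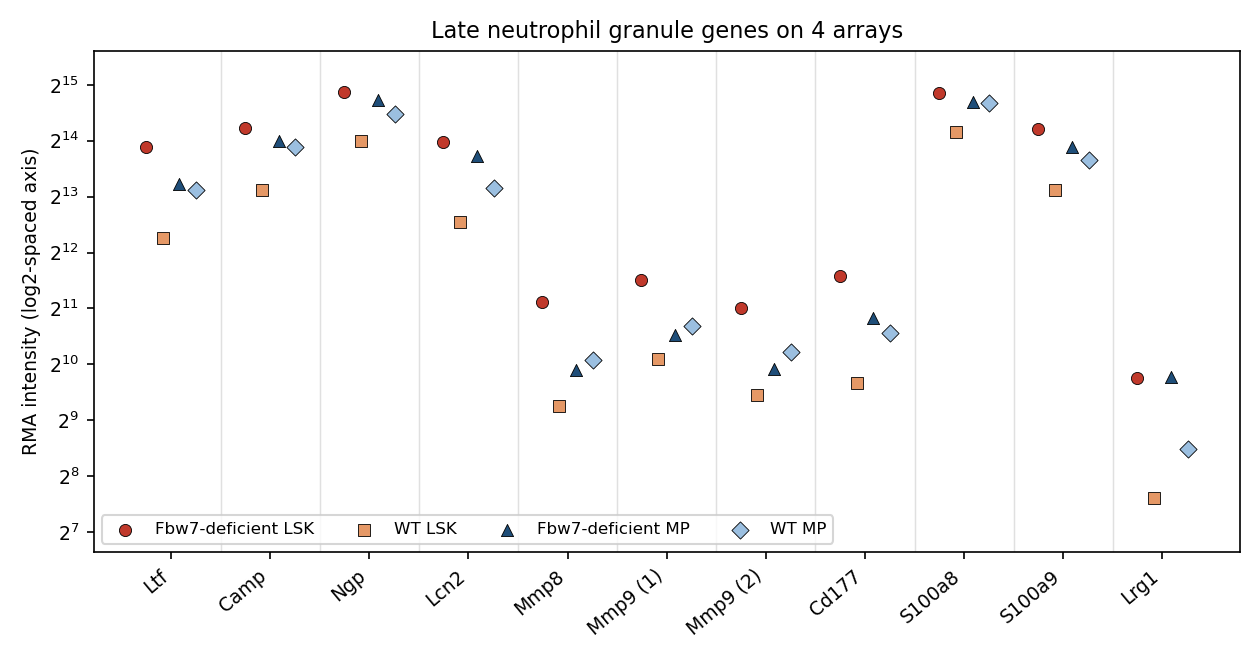
RMA intensity of the 11 probe sets (y axis, log2-spaced) on the Fbw7-deficient LSK, WT LSK, Fbw7-deficient MP and WT MP arrays, 1 symbol per array. Within each probe set WT LSK is the lowest of the 4 symbols, and Fbw7-deficient LSK is the highest for all but Lrg1; heights are not compared between probe sets.

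Among the genes of the secondary granule matrix, Ltf encodes lactoferrin, an iron-binding protein that withholds iron from microbes. It read 15133 in Fbw7-deficient LSK and 4904 in WT LSK, and 9563 in Fbw7-deficient MP and 8866 in WT MP. The difference between genotypes was 3.09-fold in LSK (log2 1.63) and 1.08-fold in MP (log2 0.11). The Fbw7-deficient LSK array was thus the highest and the WT LSK array the lowest, with both MP arrays close to each other in between.

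Camp encodes the cathelicidin precursor, from which an antimicrobial peptide is cut. It read 19277 in Fbw7-deficient LSK and 8874 in WT LSK (log2 1.12), and 16421 in Fbw7-deficient MP and 15078 in WT MP (log2 0.12). Ngp, neutrophilic granule protein, is related to the cathelicidins and cystatins. It read 29843 in Fbw7-deficient LSK and 16421 in WT LSK (log2 0.86), and 27204 in Fbw7-deficient MP and 22927 in WT MP (log2 0.25). Ngp stayed under 2-fold in LSK, at 1.82-fold, while Camp passed it at 2.17-fold.

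Lcn2 encodes lipocalin 2, which binds bacterial siderophores and so blocks their iron uptake. It read 16150 in Fbw7-deficient LSK and 5983 in WT LSK (log2 1.43), and 13520 in Fbw7-deficient MP and 9131 in WT MP (log2 0.57). Its MP difference of 1.48-fold was the second in size among the members, after that of Lrg1.

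The metalloproteinase genes were higher in Fbw7-deficient LSK and slightly lower in Fbw7-deficient MP than in the WT cells. Mmp8 encodes neutrophil collagenase, stored in secondary granules. It read 2223 in Fbw7-deficient LSK and 612 in WT LSK, a 3.64-fold difference (log2 1.86), and 955 in Fbw7-deficient MP and 1084 in WT MP (log2 -0.18). Mmp9 encodes gelatinase B, the enzyme that names the gelatinase granules. Its probe set (1) read 2912 in Fbw7-deficient LSK and 1093 in WT LSK (log2 1.41), and 1470 in Fbw7-deficient MP and 1646 in WT MP (log2 -0.16). Its probe set (2) read 2067 in Fbw7-deficient LSK and 700.0 in WT LSK (log2 1.56), and 965 in Fbw7-deficient MP and 1198 in WT MP (log2 -0.31). Both probe sets of Mmp9 gave the same order of the 4 arrays, and so did the probe set of Mmp8.

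Cd177 encodes a glycolipid-anchored protein of the neutrophil surface and of the secondary granule membrane. It read 3047 in Fbw7-deficient LSK and 809 in WT LSK, a 3.77-fold difference (log2 1.91), and 1822 in Fbw7-deficient MP and 1508 in WT MP (log2 0.27). After Lrg1 it had the largest LSK difference of the members.

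S100a8 and S100a9 encode the subunits of calprotectin, a calcium- and zinc-binding complex that fills the neutrophil cytosol. S100a8 read 29479 in Fbw7-deficient LSK and 18156 in WT LSK (log2 0.70), and 26390 in Fbw7-deficient MP and 26149 in WT MP (log2 0.01, and -0.01 after a further quantile normalization). Its probe set is of a kind that can match transcripts of more than 1 gene. S100a9 read 18964 in Fbw7-deficient LSK and 8900 in WT LSK (log2 1.09), and 15224 in Fbw7-deficient MP and 12858 in WT MP (log2 0.24). The partners differed in size in LSK, at 1.62-fold for S100a8 and 2.13-fold for S100a9, and S100a8 had the smallest LSK difference of all members. S100a8 and Ngp, the members under 2-fold in LSK, were also the brightest members. The highest intensity of any probe set was 42460 on the Fbw7-deficient LSK array and 43564 on the WT LSK array. The part of brightness in the size of the differences was not tested.

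Lrg1 encodes leucine-rich alpha-2-glycoprotein, a secreted protein known to modify TGF-beta signalling. It read 859 in Fbw7-deficient LSK and 196 in WT LSK, a 4.38-fold difference (log2 2.13), and 877 in Fbw7-deficient MP and 359 in WT MP, a 2.44-fold difference (log2 1.29). It was the 1 member past 2-fold in MP, where 0.825% of all genes were at least 2-fold higher. No member was at least 2-fold lower in either population, where 1.95% of all genes were so in LSK and 1.49% in MP.

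**Figure D2:**
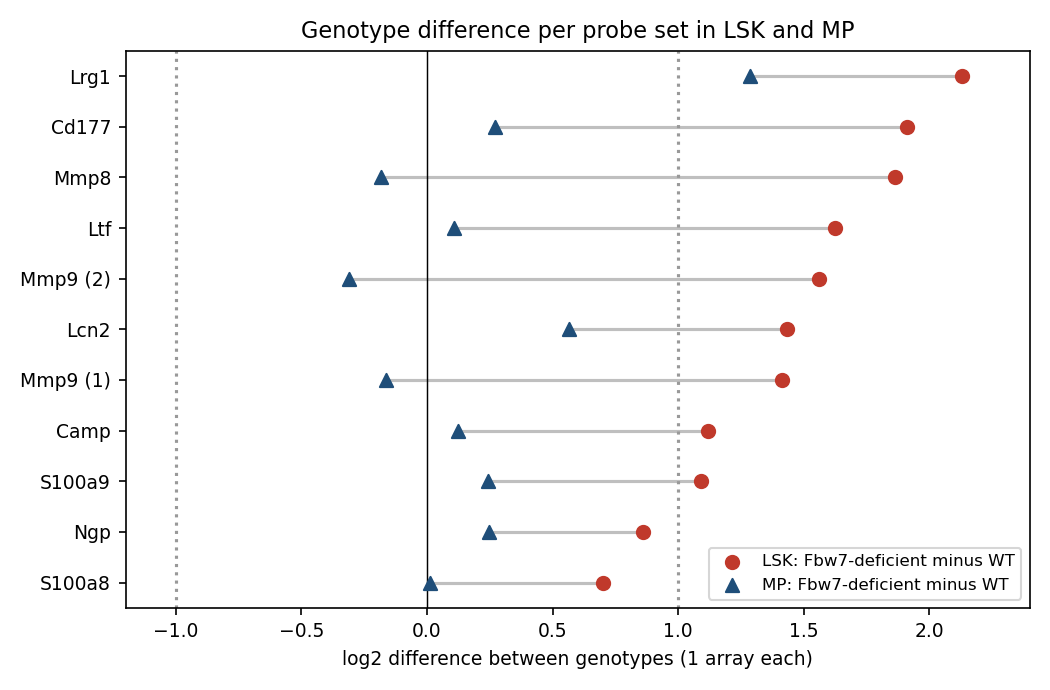
Log2 difference between Fbw7-deficient and WT cells (x axis) for each probe set, as a circle for LSK and a triangle for MP; dotted lines mark 2-fold. LSK differences run from 0.70 for S100a8 to 2.13 for Lrg1, and MP differences from -0.31 for Mmp9 (2) to 1.29 for Lrg1.

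Subtracting the MP difference from the LSK difference left every member above 0, from 0.62 for Ngp to 2.04 for Mmp8, with a median of 0.93. Of the 10 genes, 4 passed 2-fold on this scale, namely Ltf, Mmp8, Mmp9 and Cd177, while 2.2% of all genes did so upward. Lrg1 had the largest LSK difference but stood at 0.85 here, since it was also high in Fbw7-deficient MP. The difference between the populations was not tested.

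**Figure D3:**
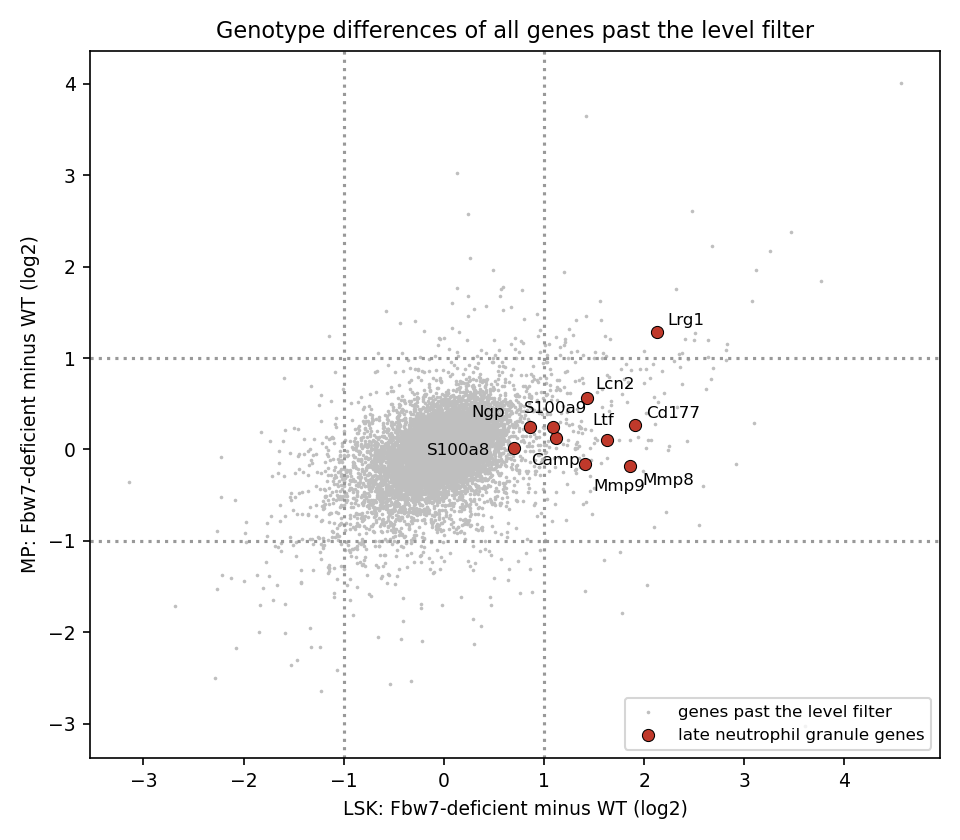
Log2 difference between Fbw7-deficient and WT cells in LSK (x axis) and in MP (y axis) for 12239 genes (grey) and the 10 late neutrophil granule genes (red, brightest probe set); dotted lines mark 2-fold. Of the red points, 8 lie right of the 2-fold line for LSK and 1, Lrg1, lies also above the line for MP.

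Set against MP cells, the WT LSK array lay below for all members and the Fbw7-deficient LSK array above for most. Over all genes the median lay near 0 in both comparisons, at -0.02 in WT and 0.01 in Fbw7-deficient cells. In WT cells all 10 genes were lower in LSK than in MP, from log2 -0.90 for Cd177 to -0.48 for Ngp, with a median of -0.69. None passed 2-fold, where 2.4% of all genes were at least 2-fold lower. In Fbw7-deficient cells 9 of 10 were higher in LSK than in MP, with a median of 0.29. Mmp8 alone passed 2-fold (log2 1.22) where 3.86% of all genes were at least 2-fold higher, with Mmp9 just under it on probe set (1) (log2 0.99) and over it on probe set (2) (log2 1.10). These comparisons share arrays with the genotype comparisons, so they repeat their chance errors.

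The Fbw7-deficient LSK array read above both MP arrays for 9 of the 10 genes, all but Lrg1, and 38.4% of all genes had that order. The WT LSK array was the lowest of the 4 for all 10 genes, an order that 36.4% of all genes had. Against the WT MP array, Fbw7-deficient LSK was higher by log2 1.26 for Lrg1, 1.04 for Mmp8 and 1.01 for Cd177, and by 0.17 to 0.82 for the other 7 genes on their brightest probe sets. Thus 3 of 10 members passed 2-fold in this comparison, where 2% of all genes were at least 2-fold higher.

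The arrays themselves differed in some controls. For Gapdh, the 3′ control probe set divided by the 5′ one gave 2.75 on the Fbw7-deficient LSK array and 4.30 on the WT LSK array, and 2.95 and 2.60 on the Fbw7-deficient MP and WT MP arrays. The array on which the members were lowest was also the array with the highest ratio, and the part of that ratio in the LSK differences was not tested. Over 24 probe sets of the bacterial poly-A spike-in RNAs, the median log2 difference between genotypes was -0.04 in LSK and -0.68 in MP. In LSK minus MP the same median was 0.85 in Fbw7-deficient and 0.05 in WT cells. These controls thus read lowest on the Fbw7-deficient MP array, and the part of that gap in the comparisons that use this array was not tested.

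The members resembled each other more in how WT LSK related to WT MP than in how the genotypes differed. Over the 10 genes the SD of the log2 difference was 0.16 for WT LSK minus WT MP, 0.47 for Fbw7-deficient minus WT LSK and 0.42 for Fbw7-deficient minus WT MP. The last SD includes Lrg1 at 1.29, while the other members ran from -0.18 for Mmp8 to 0.57 for Lcn2. No such SD was taken over other genes. In their mean pattern, centred over the 4 arrays, the members stood at 0.65 in Fbw7-deficient LSK, -0.76 in WT LSK, 0.18 in Fbw7-deficient MP and -0.07 in WT MP. Ltf lay closest to that mean (distance 0.18 in log2 units over 4 arrays) and Lrg1 farthest (0.95).

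The 6 other genes nearest to the mean pattern were Slc25a37 (distance 0.06), Ceacam1 (0.08), Alas2 (0.16), Itgb2l (0.19), Slfn2 (0.20) and Pla2g7 (0.20). Slc25a37, which encodes the mitochondrial iron importer mitoferrin 1, read 5375 in Fbw7-deficient LSK and 2078 in WT LSK, and 4097 in Fbw7-deficient MP and 3311 in WT MP. Alas2, the first enzyme of heme synthesis in erythroid cells, read 3028 in Fbw7-deficient LSK and 1048 in WT LSK, and 2124 in Fbw7-deficient MP and 1970 in WT MP. Itgb2l, an integrin beta-2-like gene of neutrophils, read 1256 in Fbw7-deficient LSK and 499 in WT LSK, and 822 in Fbw7-deficient MP and 810 in WT MP. The nearest genes thus include genes known from the erythroid as well as the neutrophil lineage, and with 4 arrays many genes can share a pattern.

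Genes of neutrophil maturation outside the member list showed the same direction in LSK. That list was chosen with earlier results of these data known and was read on the same arrays, so it is no separate support. Of 36 listed, the array names 27, of which 25 passed the filter. All 25 were above 0 in Fbw7-deficient minus WT LSK, with a median of 1.28. At least 2-fold higher were 15, against 1.79% of all genes, and none was 2-fold lower. In MP 0 of 25 were 2-fold higher, against 0.825% of all genes, and 1 was 2-fold lower, against 1.49%. The median in MP was -0.11. Cybb, the large subunit of the phagocyte NADPH oxidase, read 2802 in Fbw7-deficient LSK and 758 in WT LSK, and 1636 in Fbw7-deficient MP and 1887 in WT MP. Ifitm6 read 3805 in Fbw7-deficient LSK and 938 in WT LSK, and 2368 in Fbw7-deficient MP and 1799 in WT MP. Fcnb, which encodes the pattern-recognition protein ficolin B, read 1672 in Fbw7-deficient LSK and 412 in WT LSK, and 1969 in Fbw7-deficient MP and 1067 in WT MP. Hp, which encodes the hemoglobin-binding protein haptoglobin, read 7616 in Fbw7-deficient LSK and 2070 in WT LSK, and 8050 in Fbw7-deficient MP and 9148 in WT MP. For Cybb and Ifitm6 the Fbw7-deficient LSK array exceeded both MP arrays, as it did for 14 of the 25 genes and for 38.4% of all genes.

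Primary granule genes, which come earlier in maturation, held another place relative to MP. Of 11 that passed the filter, 4 were at least 2-fold higher in Fbw7-deficient than in WT LSK, against 1.79% of all genes. Their median there was 0.41, and none was past 2-fold in MP. Elane, which encodes neutrophil elastase, read 9986 in Fbw7-deficient LSK and 1322 in WT LSK, and 21158 in Fbw7-deficient MP and 23552 in WT MP. Ms4a3, a gene of granulocyte and monocyte progenitors, read 6609 in Fbw7-deficient LSK and 1225 in WT LSK, and 14225 in Fbw7-deficient MP and 13381 in WT MP. In these examples Fbw7-deficient LSK stayed below both MP arrays. It exceeded both for 2 of the 11 primary granule genes, against 9 of the 10 late granule genes and 38.4% of all genes. In Fbw7-deficient LSK minus Fbw7-deficient MP the primary granule genes had a median of -0.28, where the late granule genes had 0.29. The poly-A controls had 0.85 in this comparison. The contrast between the lists was not tested.

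**Figure D4:**
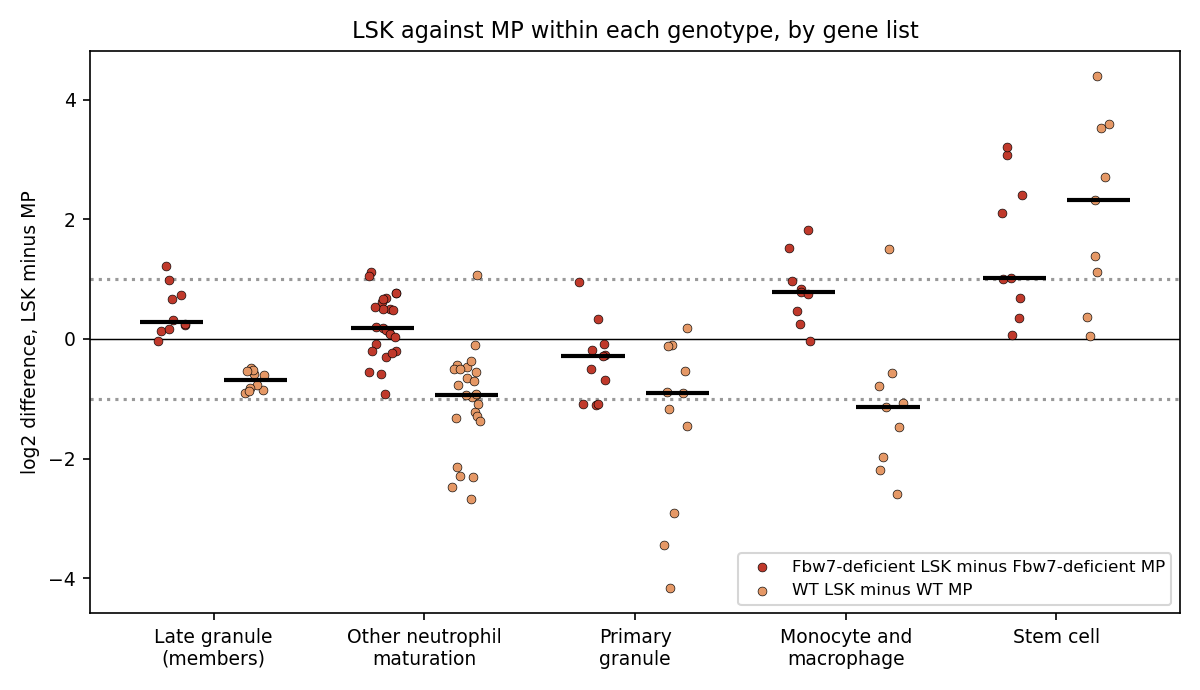
Log2 difference of LSK minus MP (y axis) in Fbw7-deficient cells (left, dark) and in WT cells (right, light) for genes of 5 lists, with the median as a black bar and 2-fold as dotted lines. The late granule genes lie at a median of 0.29 in Fbw7-deficient and -0.69 in WT cells, and the primary granule genes at -0.28 and -0.91.

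Of the 15 listed regulators of granule genes, 14 are named on the array, all past the filter, and Cebpe is not analysed here. In LSK 1 of 14 was at least 2-fold higher, against 1.79% of all genes, and none 2-fold lower, with a median of 0.21. That gene was Cebpd, which encodes C/EBP delta, at 2006 in Fbw7-deficient LSK and 810 in WT LSK (log2 1.31), and at 2272 in Fbw7-deficient MP and 2648 in WT MP (log2 -0.22). In MP, where 1.49% of all genes were at least 2-fold lower, 2 of 14 regulators were so. They were Irf8, a factor of the monocyte and dendritic cell lineage, at 3318 in Fbw7-deficient MP and 9804 in WT MP, and Cebpa, which encodes C/EBP alpha of the granulocyte-monocyte lineage, at 706 in Fbw7-deficient MP and 1416 in WT MP. Irf8 read 8366 in Fbw7-deficient LSK and 4955 in WT LSK. Cebpa, which lies outside the rule for named genes and was picked after its value was seen, read 601 in Fbw7-deficient LSK and 451 in WT LSK. Stat3, which carries the signal of the G-CSF receptor, read 1512 in Fbw7-deficient LSK and 2246 in WT LSK (log2 -0.57).

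Among 18 listed partners and receptors of the member proteins, 14 passed the filter. Of these, 2 were at least 2-fold higher in Fbw7-deficient LSK, against 1.79% of all genes. Fpr2, a formyl peptide receptor that binds cathelicidin peptides, read 2578 in Fbw7-deficient LSK and 932 in WT LSK (log2 1.47), and 1442 in Fbw7-deficient MP and 1567 in WT MP (log2 -0.12). Acvrl1, a TGF-beta family receptor through which LRG1 acts in endothelial cells, read 191 in Fbw7-deficient LSK and 85.0 in WT LSK. In Fbw7-deficient MP it read 125 and in WT MP 94.9. Acvrl1 passed the level filter on the Fbw7-deficient LSK array alone, so its call as higher there is not independent of the filter. Prtn3, the proteinase that CD177 holds on the cell surface in human neutrophils, read 26809 in Fbw7-deficient LSK and 13756 in WT LSK (log2 0.96). Tgfbr2, a TGF-beta receptor, was lower in the Fbw7-deficient cells, at 2265 against 4328 in LSK (log2 -0.93) and at 740 against 1605 in MP (log2 -1.12). The genes of the S100A8/A9 receptors differed little in LSK, with log2 0.02 for Tlr4 and 0.01 for Ager, 2 genes picked with their values known and not by the rule.

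Markers of other cells also differed between the arrays. Of 9 stem cell markers none was above 0 in Fbw7-deficient minus WT LSK. At least 2-fold lower were 5, against 1.95% of all genes. Their summed intensity was 14051 in Fbw7-deficient LSK and 28764 in WT LSK, and 7268 in Fbw7-deficient MP and 11158 in WT MP. Of 9 monocyte and macrophage markers 4 were at least 2-fold higher in Fbw7-deficient LSK, against 1.79% of all genes. The summed intensity of the 9 was 23439 in Fbw7-deficient LSK and 13919 in WT LSK. In MP that sum was 11589 in Fbw7-deficient and 22744 in WT cells. Of 7 erythroid markers that passed the filter 5 were at least 2-fold higher in Fbw7-deficient LSK, against 1.79% of all genes. Over the 8 named on the array the sum was 27632 in Fbw7-deficient LSK and 8428 in WT LSK, and 58043 in Fbw7-deficient MP and 35886 in WT MP. The sums of the eosinophil, basophil and mast cell markers were 7945 in Fbw7-deficient LSK and 9505 in WT LSK. Those of the megakaryocyte markers were 4473 and 10759, of the B and plasma cell markers 4250 and 2966, and of the T and NK cell markers 7021 and 6776. Of the T and NK sums, 5137 and 5058 came from Nkg7, which the primary granule list also holds. In Fbw7-deficient and WT MP the sums were, in the same order of lists, 26916 and 22863.5, 5740 and 8868, 2131 and 3490, and 12421 and 11070. Itgam, which encodes the lineage antigen CD11b of mature myeloid cells, was also named outside the rule. It read 78.1 in Fbw7-deficient LSK and 64.3 in WT LSK, and 62.7 in Fbw7-deficient MP and 77.5 in WT MP. All of these lie below the level filter. A gene that reads this low on all 4 arrays does not show whether the gates held mature myeloid cells. The part of other cells within the gates in the member values was not tested.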

How the data were processed

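Per the submitters' processing notes, the authors summarised the arrays with RMA, and deposited 1 linear-scale intensity for each probe set and array. Its version and settings are not stated in the labels. All values were taken to log2 here. Of 45101 probe sets, 34945 name 1 gene in the platform annotation, 34741 of them with a symbol looked up by gene ID. They stand for 18193 genes. Where 1 value per gene was needed, the brightest probe set by mean log2 value was taken, and 12239 genes reached the median of all values (157) on at least 1 array. A difference counts at 2-fold. Each group has 1 array, so no test or error is given and precision is limited by that number.

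The genes and lists were chosen with earlier results of these data known. Every member probe set is printed. From each list, counts cover the members that passed the level filter, and the 4 with the largest LSK genotype difference may be named; Cebpa, Tlr4, Ager and Itgam are named outside this rule. Similarity in pattern was the Euclidean distance between log2 values centred over the 4 arrays. Alternatives were the mean of all probe sets, the level filter, a further quantile normalization, an offset of 50 and the fold. The procedure was tested on simulated data in which the noise between arrays was assumed. That test does not measure how reliable differences between single arrays are. Python 3.11.15, numpy 2.4.6, pandas 2.3.3 and matplotlib 3.10.9 were used. Promoter windows are RefSeq's, of GRCm38.p6.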

Additional observations from a re-analysis of the deposited data

Results flagged for a closer look

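In Mmp8 and Mmp9 the genotype difference ran one way in LSK and the other way in MP. Mmp8 had a log2 difference of 1.86 between Fbw7-deficient and WT LSK and of -0.18 between Fbw7-deficient and WT MP, which leaves 2.04 between the populations. The brighter Mmp9 probe set had 1.41 in LSK and -0.16 in MP, a gap of 1.58, and the other Mmp9 probe set had 1.56 and -0.31, a gap of 1.87. Each sign rests on 1 array per group, and the difference between the populations was not tested.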

How the results depend on the processing

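No paired analysis was possible because each group has 1 array. All 150 single member differences recomputed with the mean of all probe sets, quantile normalization or an offset of 50 kept their direction and side of 2-fold, except 1 that passed 2-fold and S100a8 in MP, whose near-zero difference turned to log2 -0.01 with quantile normalization. The exception was Mmp9 in Fbw7-deficient LSK over Fbw7-deficient MP, at log2 1.04 with the mean of its probe sets, which raised the count of members 2-fold higher there to 2 (2.89% of all genes). A stricter level filter or none left all 10 members in and changed none of their counts. The median over the members stayed between 1.40 and 1.46 in LSK and between 0.18 and 0.19 in MP under these alternatives. At 1.5-fold, 7 members were lower in WT LSK than in WT MP (6.91% of all genes) and 4 were higher in Fbw7-deficient LSK than in Fbw7-deficient MP (9.62%). At 3-fold, 4 members were higher in Fbw7-deficient LSK than in WT LSK (0.678% of all genes), 0 in Fbw7-deficient MP over WT MP (0.188%) and 0 in Fbw7-deficient LSK over Fbw7-deficient MP (1.39%). With the WT MP array in place of the WT LSK array, a choice made after the data were seen, 3 members were 2-fold higher in Fbw7-deficient LSK (2% of all genes). Against the WT LSK array itself that count was 8. The counts given here differ in the fold, the probe sets or the array compared, and what moved them was not tested.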

Other observations

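Relatives of the member genes were also read. Of 14 other S100 genes listed, the array names 11, of which 6 passed the level filter. In LSK, 1 of these 6 was at least 2-fold higher in the Fbw7-deficient cells, against 1.79% of all genes. None was 2-fold lower, and the median log2 difference was -0.18. The gene past 2-fold was S100a6, which encodes calcyclin, at 1683 in Fbw7-deficient LSK and 785 in WT LSK (log2 1.10), and at 695 in Fbw7-deficient MP and 602 in WT MP. S100a10, the partner of annexin A2, read 4287 in Fbw7-deficient LSK and 6218 in WT LSK (log2 -0.54). Of 16 other matrix metalloproteinase genes listed, the array names 13, of which 5 passed the filter. Mmp2, which encodes gelatinase A, read 311 in Fbw7-deficient LSK and 754 in WT LSK (log2 -1.28), against log2 1.41 and 1.56 for the probe sets of Mmp9, which encodes gelatinase B. Mmp14, a membrane-bound metalloproteinase gene, read 887 in Fbw7-deficient MP and 572 in WT MP, and 188 and 168 in the LSK cells of the same genotypes. These differences lie between single arrays and were not tested.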
